A study of Mus musculus with 29 samples.

Results

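The genes described here encode the enzyme complexes of the mitochondrial respiratory chain and the ATP synthase. They were chosen by name: probe sets annotated with exactly 1 gene symbol that begins with Nduf, Uqcr, Atp5 or Cox4 to Cox8, or that is Sdha, Sdhb, Sdhc, Sdhd or Cyc1. Where a gene had several such probe sets, the one with the highest mean over all arrays stood for it. This gave 90 genes of the 19938 measured with 1 symbol, from 115 probe sets, and 17 of the 90 had several. The rule used names and mean level alone, but it was set with earlier results of these data known. All 90 matched RefSeq by Entrez ID, and choosing by RefSeq's current symbols gave the same 90.

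Expression was measured in the caudate nucleus, the part of the basal ganglia that degenerates first in Huntington disease, of 29 mice with 1 array each. HdhQ150 is a knock-in model that carries an expanded CAG repeat in the mouse's own huntingtin gene, and whether the mice had 1 or both copies altered is not given in the labels. The groups were 6: HdhQ150 animals aged 6 (n = 5), 12 (n = 6) or 18 months (n = 4), with wild-type littermates of the same ages (n = 5, 5 and 4). The labels give 1 strain for all of them, 129/Ola x C57BL6/J, and name no agent, and 23 mice were labelled female and 6 male, none of the males at 18 months. Each mouse was studied at 1 age, and the labels give no batch, so age cannot be told apart from any batch that follows it.

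The respiratory chain passes electrons from NADH and succinate to oxygen and pumps protons across the inner mitochondrial membrane, and the ATP synthase uses the return of those protons to make ATP. Complex I takes electrons from NADH, complex II from succinate, complex III hands them to cytochrome c and complex IV to oxygen. Striatal neurons fire and restore their ion gradients at high energy cost, and the complex II poison 3-nitropropionic acid lesions the striatum, which is 1 reason why these genes are followed in Huntington disease. The subunits counted here are those encoded in the nucleus. By role they were 6 core and 28 accessory subunits and 7 assembly factors of complex I, the 4 subunits of complex II, 9 subunits of complex III, 10 common subunits of complex IV (Ndufa4, which sits in complex IV, among them), 9 complex IV isoforms or relatives of restricted use, and 5 subunits of the catalytic F1 head and 12 of the stalk and membrane part of the ATP synthase.

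Levels are log2 values, so a difference of 1 is a doubling, and levels of different genes are not compared. All 12 measured striatal projection neuron markers of 14 listed lay in the upper 50% of genes by level, among them the dopamine signalling phosphoprotein Ppp1r1b (11.29) and the enkephalin precursor Penk (12.28), as did 82 of the 90 respiratory genes. Cortical excitatory neuron markers were also measured above that level (8 of 9). The array of wild-type mouse WT-454, a 12-month male, stood apart: its mean correlation with the other arrays of its group was 0.945, against 0.975 to 0.978 within that group and 0.980 to 0.988 in the other groups. HdhQ150-1023, a mouse of 6 months, is labelled female but had Xist at 5.95 and Eif2s3y at 8.30, inside the ranges of the labelled males (5.50 to 6.13 and 7.04 to 8.42). Calls that end without either mouse are given with and without it. Arrays were fitted together in limma with 6 group means and labelled sex, and p-values were adjusted by the Benjamini-Hochberg method over all 19938 genes. The p-values measure the spread between these mice, and in a piece of tissue fewer cells of a type and less RNA per cell cannot be told apart.

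Nuclear respiratory genes are known targets of the factors NRF1, GABP (an ETS family factor) and YY1, so their promoters were read from the RefSeq table of assembly GRCm38.p6, which holds 250 bases before to 50 after each start site. Of the 90 genes, 73 had an entry. The palindromic NRF1 core CGCATGCG, searched on both strands, stood in the promoters of 11 of the 73 (15.1%), against 1.87% of all 32851 promoters in the table and 3.01% of the 15563 genes on the array with an entry. The 11 genes were Ndufa8, Ndufa11, Ndufaf4, Ndufaf5, Uqcrc1, Uqcr11, Cox6a1, Atp5g2, Atp5j, Atp5k and Atp5l. The ETS motif CCGGAAGT was held by 5 (6.85%, against 3.89% of all promoters and 6.03% of array genes), the YY1 motif GATGGCGG by 6 (8.22%, against 1.7% and 2.74%) and CCAAT by 32 (43.8%, against 37.4% and 41.7%). None of these motifs contains another, 4 of the 11 genes with the NRF1 core also held a second motif, 27 of the 73 genes held none of them, and the median GC content was 58% in these promoters and 57.7% in those of array genes. A match describes letters in this window and is not a measured binding site. The promoters of 3 genes are printed because these genes changed with age in wild-type mice and hold the NRF1 core between 150 bases before and 30 after the start site. Capitals mark motif matches, each promoter is given 5′ to 3′ on the gene's own strand, and all 3 lie on the minus strand: Atp5k at chr5:108434370-108434549 with the core beginning 49 bases before the start site, Ndufa8 at chr2:36049309-36049488 with the core 9 bases before it, and Uqcr11 at chr10:80406792-80406971 with the core 5 bases and the ETS motif 66 bases before it.
Atp5k: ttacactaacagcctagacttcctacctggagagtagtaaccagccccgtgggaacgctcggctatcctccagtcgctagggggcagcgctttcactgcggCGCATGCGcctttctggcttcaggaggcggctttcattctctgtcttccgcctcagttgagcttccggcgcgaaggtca
Ndufa8: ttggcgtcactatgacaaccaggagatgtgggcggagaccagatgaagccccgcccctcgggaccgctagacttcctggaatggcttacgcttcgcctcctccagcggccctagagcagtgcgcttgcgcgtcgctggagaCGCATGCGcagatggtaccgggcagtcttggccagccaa
Uqcr11: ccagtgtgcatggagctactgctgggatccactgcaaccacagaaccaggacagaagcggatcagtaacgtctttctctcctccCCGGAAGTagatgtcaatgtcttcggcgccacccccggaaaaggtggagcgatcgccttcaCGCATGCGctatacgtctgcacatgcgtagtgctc

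The comparison of HdhQ150 with wild-type littermates at each age asks whether the mutation altered the level of this machinery. No respiratory gene passed at 6, 12 or 18 months. The differences were small: at 12 and 18 months the 95% interval of all 90 genes lay within 0.5 of 0 on the log2 scale, and at 6 months that of 83, a limit chosen after the values were seen. The median difference was 0.014 at 6 months, 0.041 at 12 months and 0.052 at 18 months, against 0.006, 0.006 and -0.004 over all genes. Single mice moved these medians: at 6 months it was -0.0034 without WT-1011, -0.00074 without HdhQ150-1017, 0.0052 without HdhQ150-1003 and 0.032 without HdhQ150-1016. At 12 months it was 0.019 without WT-454 and 0.022 without WT-527, and at 18 months 0.035 without HdhQ150-383 and 0.030 without WT-431. At 6 months 47 of 90 respiratory genes lay above 0, a share like that of all genes (10429 of 19938). At 12 and 18 months 55 and 71 of 90 did, against 10506 and 9636 of the 19938 genes. The 12-month count was lower without WT-454, as given below.

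**Figure D1:**
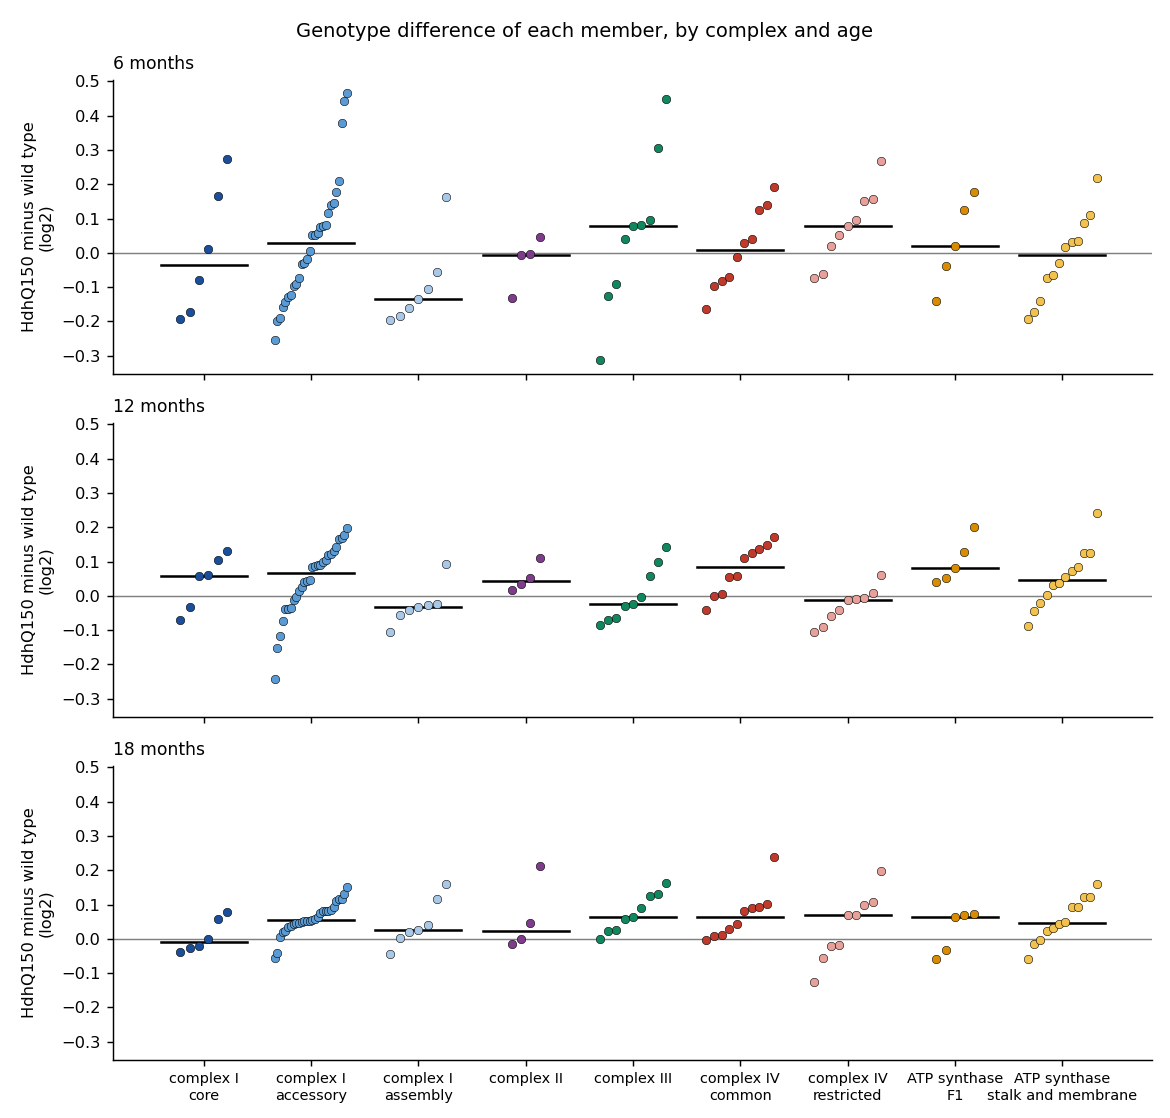
Difference between HdhQ150 and wild-type mice (log2, y axis) of each respiratory gene at 6, 12 and 18 months (panels from top to bottom), 1 point per gene, sorted within its complex, with the median of each complex as a bar. The spread is widest at 6 months, from -0.31 to 0.47, and no gene passed the adjusted test at any age.

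At 6 months 0.0251% of all genes differed between genotypes by limma at an adjusted p under 0.05, and none of the 90 did. At an unadjusted p under 0.05, 14 respiratory genes were higher and 8 lower, against 6.36% of all genes higher and 7.37% lower. The groups did not overlap in 6 respiratory genes, 4 higher and 2 lower, against 3.18% of all genes in either direction. The smallest adjusted p belonged to Ndufs3, a core subunit of the complex I arm that reaches into the matrix. Its level was 9.47, 9.52, 9.43, 9.55 and 9.58 in the 5 HdhQ150 mice and 9.62, 9.72, 9.68, 9.68 and 9.72 in the 5 wild-type mice. The HdhQ150 values all lay beneath the lowest wild-type value, and the fitted difference was -0.19 (SE 0.05, limma adjusted p = 0.130). The other groups without overlap were those of Atp5g1 (0.22), Atp5d (0.18), Ndufa13 (0.14) and the assembly factor Ndufaf3 (0.16), higher in HdhQ150, and the assembly factor Ndufaf7 (-0.18), lower (limma, adjusted p between 0.185 and 0.286).

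The largest 6-month differences were in 3 small subunits. Ndufa7, an accessory subunit of complex I, was at 9.56, 9.43, 9.38, 9.39 and 8.86 in the HdhQ150 mice and at 8.85, 8.85, 8.87, 8.88 and 9.01 in the wild-type mice. The value of 8.86 is that of HdhQ150-1023, and the other 4 HdhQ150 mice lay above all wild-type mice. Uqcr11, the smallest subunit of complex III, had the same pattern, with 9.66, 9.67, 9.53, 9.63 and, in HdhQ150-1023, 9.07 against 9.15, 9.04, 9.02, 9.01 and 9.21. Ndufa11, a membrane subunit of complex I, was at 9.82, 9.75, 9.48 and 9.99 and at 9.15 in HdhQ150-1023, against 9.21, 9.33, 9.31, 9.08 and 9.04. With all mice the differences were 0.44, 0.45 and 0.47 (SE 0.13, 0.14 and 0.14, limma adjusted p = 0.156, 0.160 and 0.162). A second probe set of Ndufa11 gave a smaller difference, 0.26 (SE 0.12, limma adjusted p = 0.338 over all probe sets), and that of Uqcr11 was at 0.48. Without HdhQ150-1023 all 3 genes passed, at 0.55 (adjusted p = 0.0391), 0.55 (0.0415) and 0.58 (0.0415), and so did 0.943% of all genes. Without both HdhQ150-1023 and WT-454, 6 passed: these 3 and Cox7b (0.25, adjusted p = 0.0395), a common complex IV subunit, were higher, and Ndufs3 (-0.20, 0.0232) and Uqcrb (-0.31, 0.0310), a subunit of complex III next to cytochrome b, were lower, against 4.35% of all genes.

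By complex the 6-month medians ran from -0.134 in the complex I assembly factors, where 1 of 7 lay above 0, to 0.080 in the restricted complex IV isoforms, where 7 of 9 did. Complex I core subunits had a median of -0.034, accessory subunits of 0.029, complex II of -0.005, complex III of 0.078, common complex IV subunits of 0.008, the F1 head of 0.021 and the stalk and membrane part of -0.006. Single subunits of 1 complex lay on both sides of 0: within complex III the differences ran from -0.31 (Uqcrb) to 0.45 (Uqcr11), and within the complex I core from -0.19 (Ndufs3) to 0.28 (Ndufs8, an iron-sulfur subunit, adjusted p = 0.255). Of the other core and catalytic subunits at 6 months, Ndufs1, the largest iron-sulfur subunit of complex I, was at -0.17, Ndufs7 at 0.17, Ndufv1 at -0.08 and Ndufv2 at 0.01. Cyc1, the cytochrome c1 of complex III, was at 0.10 and its iron-sulfur partner Uqcrfs1 at 0.04, Uqcrc1 at 0.08 and Uqcrc2 at -0.09. In complex IV Cox4i1 was at 0.03 and Cox5a at -0.16, and in the F1 head the alpha subunit Atp5a1 was at -0.04, Atp5b at 0.02, Atp5c1 at -0.14, Atp5d at 0.18 and Atp5e at 0.12. In complex II the catalytic flavoprotein Sdha was at -0.13 and the other 3 subunits between -0.01 and 0.05.

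At 12 months 0.938% of all genes differed and again none of the 90. Unadjusted, 6 were higher and 2 lower, against 4.67% and 4.3% of all genes. Both genes without overlap encode parts of the ATP synthase, and 1.59% of all genes had no overlap. Atp5b, the catalytic beta subunit, was at 11.92, 11.89, 12.17, 12.15 and 12.07 in wild-type mice, with WT-454 the first of these, and ran from 12.20 to 12.30 with a median of 12.23 in the 6 HdhQ150 mice. All 6 HdhQ150 mice were above all 5 wild-type mice, and the difference of 0.20 (SE 0.05, 95% interval 0.10 to 0.31) just missed the threshold (limma adjusted p = 0.0510). Atp5g1, 1 of 3 genes for the membrane ring that turns as protons pass, was at 10.93, 10.96, 11.11, 10.79 and 10.81 in wild-type mice and between 11.13 and 11.22, with a median of 11.15, in HdhQ150 mice. These groups did not overlap either (0.24, SE 0.07, limma adjusted p = 0.0953), and the same gene had separate groups at 6 months. Without WT-454 the difference was 0.16 for Atp5b (adjusted p = 0.101) and 0.25 for Atp5g1 (0.0704). Atp5b passed without the sex term (0.0412), with robust variances (0.0384), over the upper 50% of genes (0.0172) and without WT-488 (0.0282) or WT-508 (0.0385). Atp5g1 passed with array weights (0.0370) and without WT-488 (0.0471) or HdhQ150-383 (0.0331). Other settings weakened both genes, with limma adjusted p given for Atp5b and then Atp5g1. Neither passed among labelled females (0.139 and 0.209) or with only the groups compared (0.182 and 0.143). The same held with median centring (0.137 and 0.136) and quantile normalization (0.2185 and 0.245), where the differences were 0.14 and 0.21 in the latter.

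The lower side at 12 months held Ndufb3 (-0.24, SE 0.09, limma adjusted p = 0.280) and Ndufa5 (-0.15), both accessory subunits of complex I. Among the core and catalytic subunits, Ndufs1 was at 0.06, Ndufs7 at -0.03, Ndufv1 at 0.10, Ndufv2 at 0.06, Cyc1 at 0.14, Uqcrfs1 at -0.07, Uqcrc1 at -0.06, Uqcrc2 at 0.06, Cox4i1 at 0.06 and Cox5a at 0.14. By complex the medians were 0.059 in the complex I core, 0.066 in accessory subunits, -0.032 in assembly factors, 0.043 in complex II, -0.025 in complex III, 0.084 in common complex IV subunits, -0.011 in restricted isoforms, 0.081 in the F1 head and 0.046 in the stalk and membrane part. All 5 F1 subunits and all 4 complex II subunits lay above 0, as did 8 of 10 common complex IV subunits. WT-454 bore on these medians. Its mean deviation over the 90 genes was -0.112, the lowest of the 29 mice, and without it the median of all 90 genes was 0.0189 and 49 of 90 lay above 0. Single genes moved by up to 0.22: the stalk subunit Atp5pb went from 0.12 to -0.09, the small membrane subunit Atp5md from 0.13 to -0.09, and Atp5l from 0.00 to -0.19.

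**Figure D2:**
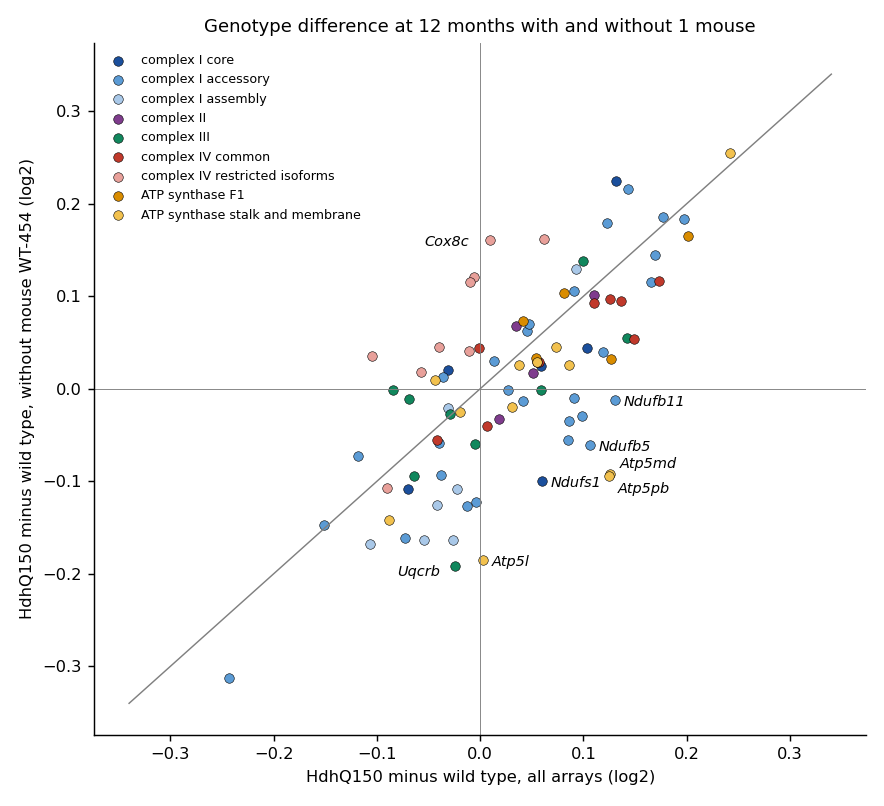
Difference between HdhQ150 and wild-type mice at 12 months (log2) of each respiratory gene with all arrays (x axis) and without wild-type mouse WT-454 (y axis), coloured by complex, with the line of equality; the 8 genes that moved most are named. Of the restricted complex IV isoforms, several of them of low level, 8 of 9 lie above the line, and Atp5pb, Atp5md and Atp5l cross to below 0.

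At 18 months 0.135% of all genes differed and none of the 90. Unadjusted, 3 were higher and 0 lower, against 3.33% and 2.48% of all genes, and the groups of 1 gene, the accessory complex I subunit Ndufb5 (0.09), did not overlap, against 3.7% of all genes. Sdha, the flavoprotein that oxidises succinate, was at 10.24, 10.41, 10.33 and 10.48 in HdhQ150 mice and at 10.02, 10.20, 10.15 and 10.24 in wild-type mice. Of the HdhQ150 mice 3 lay above all wild-type mice and the other near the highest of them, and the difference was 0.21 (SE 0.07, 95% interval 0.06 to 0.36, limma adjusted p = 0.486). The others were Cox5b (0.24, SE 0.10, adjusted p = 0.690), a zinc-binding complex IV subunit, and Uqcrc2 (0.16, SE 0.07, 0.730), a core protein of complex III. A second probe set of Cox5b was at 0.09 (SE 0.11). Ndufs1 and Sdhb were at 0.00 to 2 decimals, Ndufs3 at -0.02, Ndufs7 at -0.03, Ndufs8 at -0.04, Ndufv1 at 0.06, Cyc1 at 0.02, Uqcrc1 at 0.03, Cox4i1 at 0.09 and Atp5b at 0.07. Accessory complex I subunits lay above 0 in 26 of 28 (median 0.055), common complex IV subunits in 9 of 10 (0.063) and complex III subunits in 8 of 9 (0.063), whereas the complex I core was at -0.010 with 2 of 6 above 0. The medians of the other groups were 0.026 in assembly factors, 0.023 in complex II, 0.069 in restricted isoforms, 0.064 in the F1 head and 0.046 in the stalk and membrane part.

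Whether the genotype difference itself changed with age was tested as an interaction, and no respiratory gene passed by limma in any of the 3 pairs of ages. Of all genes 0.00502% passed between 6 and 12 months, and 0% between 12 and 18 and between 6 and 18 months. Unadjusted, 5 respiratory genes shifted up and 2 down between 6 and 12 months (3.55% and 2.95% of all genes, 708 and 589), 1 up and 0 down between 12 and 18 months (1.15% and 0.913%, 230 and 182) and 9 up and 2 down between 6 and 18 months (4.98% and 3.19%, 993 and 636). The smallest p was that of Sdha between 6 and 18 months, whose difference moved from -0.13 to 0.21, a shift of 0.34 (SE 0.10, limma adjusted p = 0.598). Beside it stood Uqcrc2 with 0.25 (adjusted p = 0.608), and between 6 and 12 months Cox5a, a matrix-side subunit of complex IV, with 0.30 (0.709). The interactions with age are less precise than the single comparisons: the intervals of 72 to 86 of 90 genes lay within 0.5 of 0.

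Cell type markers moved beside these comparisons. Striatal projection neuron markers were lower in HdhQ150 mice for 11 of 12 genes at 6 months, 11 of 12 at 12 months and 12 of 12 at 18 months, with 0, 5 and 4 past the threshold and medians of -0.255, -0.356 and -0.457. Markers of neurons in general had medians of 0.088, 0.018 and -0.002, with 2 of 9 higher at 12 months, and those of astrocytes of -0.070, -0.023 and 0.015, with 1 of 9 higher at 12 and at 18 months. Of all genes 0.0251%, 0.938% and 0.135% passed at 6, 12 and 18 months in either direction. The part of these marker differences in the respiratory medians was not tested.

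More of these genes passed between ages than between genotypes. In wild-type mice 15 of 90 differed between 6 and 12 months, 5 higher and 10 lower at 12 months, against 13.1% of all genes higher and 12.6% lower. In HdhQ150 mice 20 differed, 10 higher and 10 lower, against 11.9% and 11.2% of all genes. The shares of the respiratory genes were near those of all genes, and lower than them for wild-type genes that rose. Other scalings moved the split: with median centring 4 were higher and 18 lower in wild-type mice, and with quantile normalization 6 and 6 in wild-type and 10 and 5 in HdhQ150 mice. The split of all genes under these scalings is not given here, so these counts cannot be read as particular to the respiratory genes. In wild-type mice 9 were called among females and 8 with only the groups compared. In HdhQ150 mice 12 were called among females, 34 with array weights (35.6% of all genes), and 13 without HdhQ150-453 or HdhQ150-1001. The shares of all genes among females and with only the groups compared are given below. No such share is given for the count without single mice, which cannot be read as particular to the respiratory genes. Within 1 complex single subunits moved in opposite directions. The median difference of the 90 genes was -0.049 in wild-type mice and -0.005 in HdhQ150 mice, against 0.035 and 0.036 over all genes. Of the called genes 7 were called in both genotypes, all in the same direction, which is 46.7% of the wild-type and 35% of the HdhQ150 list: Cox4i1, Ndufb2 and Atp5k were higher at 12 months, and Uqcrc1, Ndufv1, Ndufa8 and Atp5d lower. The overlap over all genes is not given here, so this overlap cannot be read as particular to the respiratory genes.

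**Figure D3:**
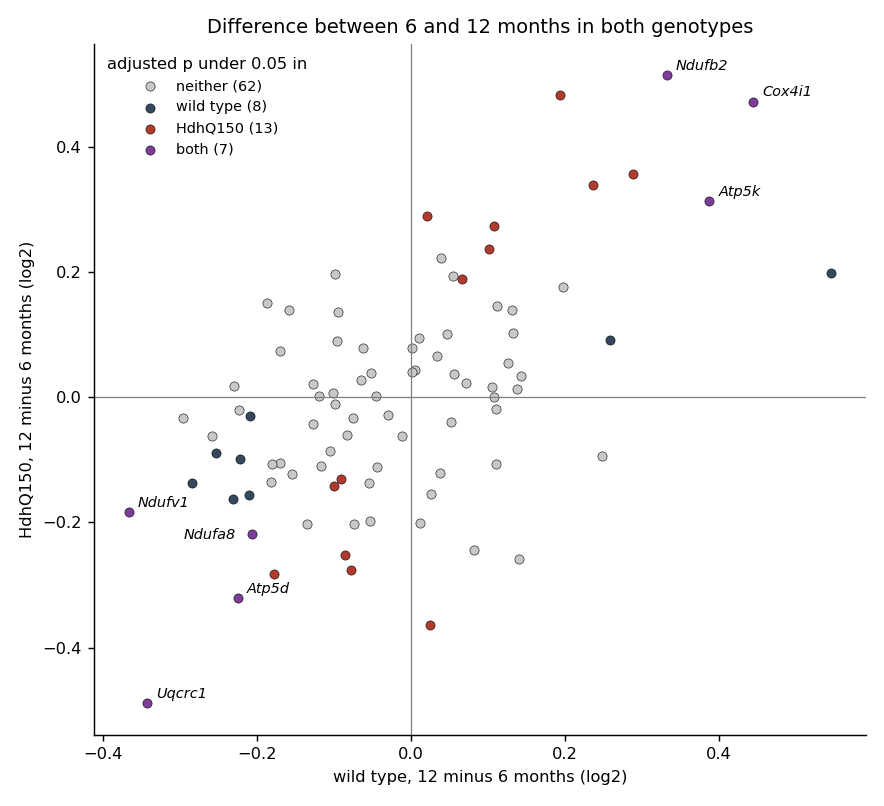
Difference between 12 and 6 months (log2) of each respiratory gene in wild-type mice (x axis) and HdhQ150 mice (y axis), coloured by whether it passed the adjusted threshold in neither (62 genes), wild type (8), HdhQ150 (13) or both (7). The 7 named genes lie in the upper right or the lower left, with the same sign in both genotypes.

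Cox4i1, the main isoform of the subunit through which ATP regulates complex IV, had the smallest p in both genotypes. At 6 months its level was 9.55, 9.68, 9.46, 9.57 and 9.39 in HdhQ150 mice and 9.55, 9.49, 9.48, 9.51 and 9.47 in wild-type mice. At 12 months it was 9.87, 10.01, 10.16, 9.92 and 9.76 in wild-type mice and ran from 9.92 to 10.10, with a median of 9.98, in HdhQ150 mice. At 18 months it was 9.90, 10.02, 10.09 and 10.01 in HdhQ150 and 9.95, 9.94, 10.04 and 9.73 in wild-type mice. All 19 mice of 12 or 18 months were above all 10 mice of 6 months. Between 6 and 12 months it rose by 0.44 in wild-type mice (SE 0.07, limma adjusted p = 4.7e-05) and by 0.47 in HdhQ150 mice (adjusted p = 9.54e-06), and it was the only respiratory gene called between 6 and 18 months in both genotypes (0.42 and 0.48, adjusted p = 0.00167 and 0.000299). These calls held in all 12 alternative analyses and without any of the 29 mice. Its partner isoform Cox4i2, which replaces it under low oxygen and in lung, was called higher in wild-type mice at 12 months (0.26, adjusted p = 0.0224), but not without WT-454 (0.20, adjusted p = 0.110) and not without WT-508, WT-1002 or WT-1020 (up to 0.126), and was at 0.09 in HdhQ150 mice.

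**Figure D4:**
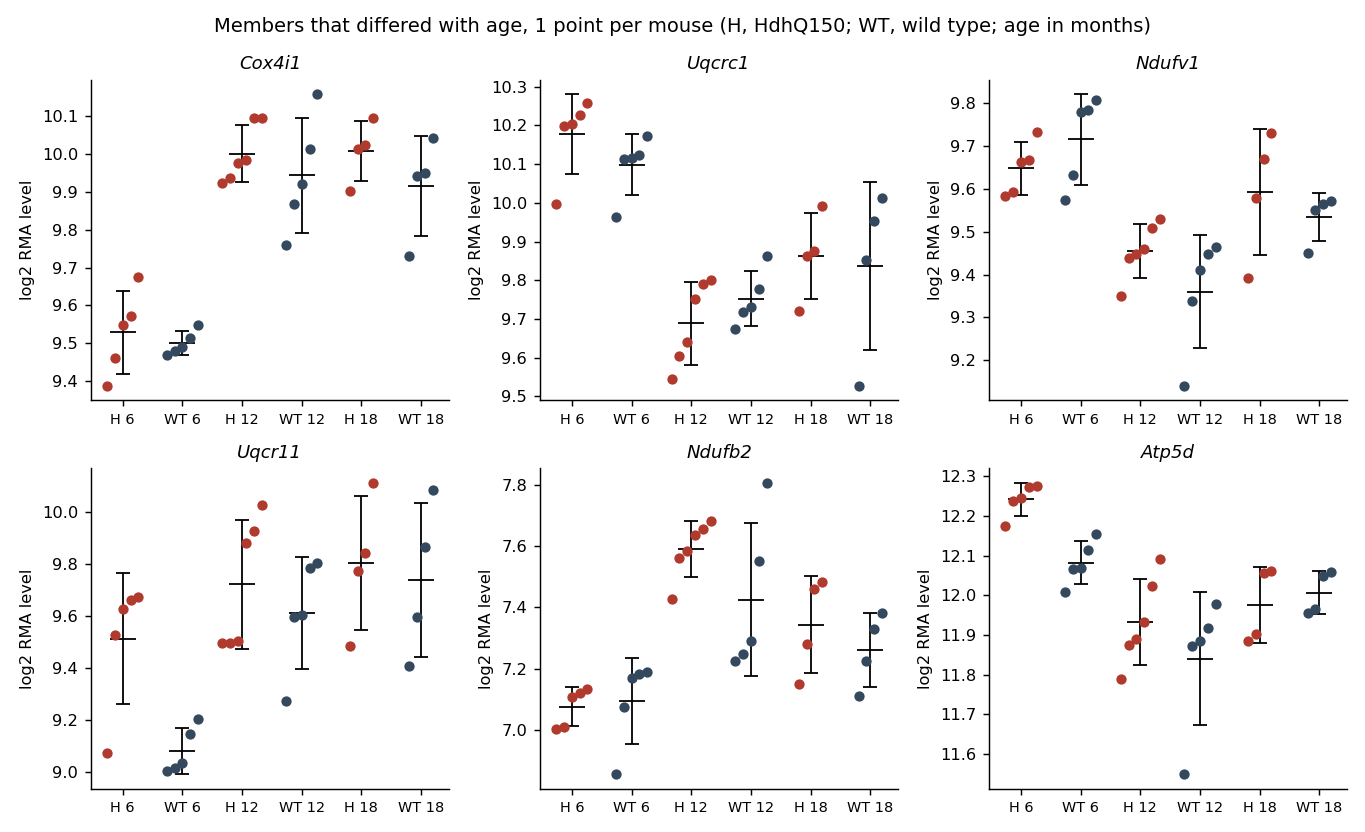
Levels (log2 RMA, y axis, own scale per gene) of Cox4i1, Uqcrc1, Ndufv1, Uqcr11, Ndufb2 and Atp5d in every mouse by group, with the mean and SD of each group. Cox4i1 and Ndufb2 are higher at 12 than at 6 months in both genotypes, Uqcrc1, Ndufv1 and Atp5d are lower, and in Uqcr11 the HdhQ150 mice of 6 months lie apart from the wild-type mice of that age, except HdhQ150-1023.

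Other common complex IV subunits split. In HdhQ150 mice Cox6b1, which lies where the enzyme's monomers meet, rose by 0.24 (adjusted p = 0.00676) and stood at 11.00, 10.94, 10.95 and 10.86 at 18 months against 10.58, 10.63, 10.42, 10.42 and 10.76 at 6 months, with no overlap (0.36, adjusted p = 0.00289). Cox5b (-0.25, 0.0294) and Cox8a (-0.14, 0.0488) fell between 6 and 12 months, and the Cox5b call was lost without single mice (adjusted p up to 0.210), as was that of Cox8a (up to 0.181, and -0.13 with 0.0963 without HdhQ150-1023). In wild-type mice Cox7a2 fell by 0.22 (adjusted p = 0.0453), which 12 single mice ended when left out, WT-454 among them (-0.20, 0.125), with the highest value without WT-1020 (0.179). Among the isoforms of restricted use, Cox7a1, the heart and muscle form, was called in HdhQ150 mice at 12 months (-0.28, adjusted p = 0.0327, up to 0.0916 without 1 mouse), and no other one besides Cox4i2. The level of Cox7a1 was low: its mean in wild-type mice was 6.85 at 6 and 6.67 at 12 months, beneath the lowest array median of 6.91.

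In complex III both core proteins fell and the small subunit Uqcr11 rose in wild-type mice, and in HdhQ150 mice Uqcrc1 and Uqcr10 fell and Uqcrb rose. The other complex III subunits did not pass. Uqcrc1 was at 10.12, 10.11, 10.17, 10.12 and 9.96 in wild-type mice of 6 months and at 9.68, 9.86, 9.78, 9.73 and 9.72 at 12 months. In HdhQ150 mice it went from 10.26, 10.20, 10.23, 10.20 and 9.996 to between 9.54 and 9.80 with a median of 9.70. Neither pair of groups overlapped, and the falls were 0.34 (adjusted p = 0.00163) and 0.49 (2.25e-05) on the log2 scale, held in all alternatives and without any mouse. Uqcrc2 fell by 0.28 in wild-type mice (adjusted p = 0.00177) and was at -0.14 in HdhQ150 mice, not called. Uqcrb, in contrast, rose in HdhQ150 mice, from 10.29, 10.39, 9.999, 10.14 and 10.33 to between 10.55 and 10.85 (0.48, adjusted p = 0.000793). All 3 of its probe sets moved alike, at 0.40 to 0.48, and at 18 months it was at 10.76, 10.77, 10.74 and 10.79, again above all HdhQ150 mice of 6 months (0.51, adjusted p = 0.00618). In wild-type mice Uqcrb was already at 10.63, 10.55, 10.41, 10.39 and 10.64 at 6 months, the difference to 12 months was 0.19 (limma adjusted p = 0.165), and WT-454 had the lowest 12-month value, 10.18. The reverse held for Uqcr11, which rose in wild-type mice by 0.55 by 12 months (adjusted p = 0.00426) and 0.69 by 18 months (0.00612) and was at 0.20 in HdhQ150 mice, whose 6-month level was the higher one. For both genes the difference between the genotypes' age changes did not pass the interaction test. Uqcr10 was called lower in HdhQ150 mice (-0.36, adjusted p = 0.0237, up to 0.0988 without 1 mouse).

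In complex I the core subunit Ndufv1, which binds NADH and FMN, fell in both genotypes. Wild-type mice went from 9.63, 9.78, 9.57, 9.78 and 9.81 at 6 months to 9.14, 9.46, 9.45, 9.41 and 9.34 at 12 months, with WT-454 lowest. The groups did not overlap, and the change was -0.37 (SE 0.06, adjusted p = 0.000201), held without any mouse. In HdhQ150 mice it was -0.18 (adjusted p = 0.0298, up to 0.163 without 1 mouse). The core subunits called in HdhQ150 but not in wild-type mice were 2: the iron-sulfur subunit Ndufs7 fell by 0.28 (adjusted p = 0.00443) and Ndufs3, low in these mice at 6 months, rose by 0.19 (0.00436). Ndufs3 stayed at that level at 18 months, with 9.70, 9.66, 9.77 and 9.72 (0.19 above 6 months, adjusted p = 0.0328).

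Of the 28 accessory subunits of complex I, 1 rose and 3 fell in wild-type mice, and 2 rose and 2 fell in HdhQ150 mice. Ndufb2, in the membrane arm, was at 7.11, 7.01, 7.14, 7.12 and 7.004 in HdhQ150 mice of 6 months and ran from 7.43 to 7.68 at 12 months, with a median of 7.61. Wild-type mice went from 7.18, 7.19, 7.08, 6.86 and 7.17 to 7.29, 7.81, 7.25, 7.55 and 7.23. Neither pair overlapped, with rises of 0.51 (adjusted p = 0.000146) and 0.33 (0.0103). Ndufa8, a subunit with twin cysteine motifs whose promoter is printed above, was at 9.46, 9.42, 9.43, 9.504 and 9.40 in wild-type mice of 6 months and at 9.31, 9.23, 9.32, 9.17 and 9.14 at 12 months. It fell by 0.21 (adjusted p = 0.00216) there and by 0.22 (0.000783) in HdhQ150 mice, again with separate groups. Ndufa9 (-0.21, adjusted p = 0.0232) and Ndufb11 (-0.25, 0.0290) were called in wild-type mice, but without WT-454 they were at -0.12 (0.206) and -0.10 (0.315). In HdhQ150 mice Ndufa10 (-0.13, 0.0301) and Ndufa1 (0.27, 0.0452) were called, and single mice ended both calls (up to 0.108 and 0.115). None of the 7 assembly factors passed between 6 and 12 months in either genotype.

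Complex II had no called subunit at any age in either genotype. Its 4 differences between 12 and 6 months ran from -0.17 to 0.05 in wild-type and from -0.11 to 0.10 in HdhQ150 mice.

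In the ATP synthase the delta subunit of the F1 head, Atp5d, fell in both genotypes. In HdhQ150 mice it went from 12.28, 12.27, 12.24, 12.25 and 12.17 at 6 months to between 11.79 and 12.09 at 12 months, with a median of 11.91. Wild-type mice went from 12.15, 12.11, 12.07, 12.07 and 12.01 to 11.98, 11.55, 11.92, 11.89 and 11.87. The groups were separate in both, with changes of -0.32 (adjusted p = 0.000302) and -0.22 (0.00967), and in HdhQ150 mice the level was still lower at 18 months (-0.25, 0.0274, up to 0.0920 without 1 mouse). Atp5b fell by 0.21 in wild-type mice (adjusted p = 0.0054) and was at -0.03 in HdhQ150 mice. The gamma subunit gene Atp5c1, whose product is the rotating shaft, rose by 0.29 in HdhQ150 mice (0.00579), from 9.96, 9.98, 9.75, 9.89 and 10.14 to between 10.15 and 10.37, and was at 0.02 in wild-type mice. For Atp5b and Atp5c1 the interaction did not pass (0.18 and 0.27, limma adjusted p = 0.715 for both).

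Of the 12 stalk and membrane subunits 1 rose and 1 fell in wild-type mice, and 3 rose in HdhQ150 mice. Atp5k, which helps synthases pair into dimers, was at 7.91, 7.74, 7.91, 7.96 and 8.005 in wild-type mice of 6 months and at 8.47, 8.59, 8.10, 8.11 and 8.15 at 12 months. It rose by 0.39 (adjusted p = 0.00248) and in HdhQ150 mice by 0.31 (0.00875), without overlap in either. Atp5mpl (0.34, adjusted p = 0.0212) and Atp5l (0.36, 0.0297), both small membrane subunits, rose in HdhQ150 mice, and single mice ended both calls (up to 0.0715 and 0.0767). The stalk subunit Atp5h fell in wild-type mice (-0.23, 0.0312), but was at -0.17 without WT-454 (0.171). Of the 15 genes called in wild-type mice 12 had a promoter entry, and 4 of these held the NRF1 core, 2 the ETS motif, 1 the YY1 motif and 4 CCAAT. Among all 73 respiratory genes with an entry the shares were 15.1%, 6.85%, 8.22% and 43.8%. A link between these motifs and the age differences was not tested.

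Between 12 and 18 months little moved. In wild-type mice Ndufb9, an accessory subunit of complex I, rose by 0.25 (adjusted p = 0.0366) and Cox7a2l, which joins complexes III and IV into supercomplexes, fell by 0.25 (0.0389), against 3.81% of all genes higher and 2.07% lower. The call of Ndufb9 ended without 7 of the mice in turn, WT-454 among them (0.24, 0.0584), with the highest adjusted p of 0.188 without WT-400, and that of Cox7a2l without 6 (up to 0.152 without WT-414). In HdhQ150 mice none was called by limma against 5.79% of all genes, with 7 higher and 6 lower at an unadjusted p under 0.05, against 10.6% and 7.18% of all genes. Without WT-454, 3 were called, and 1 was without each of HdhQ150-383, HdhQ150-415, HdhQ150-1003, WT-1004 and WT-1011. The shares of all genes without these mice are not given here, so these counts cannot be read as particular to the respiratory genes. Cox7a1 came nearest (0.33, adjusted p = 0.0571). The 9 complex III subunits all lay above 0 in HdhQ150 mice, with a median of 0.115.

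Between 6 and 18 months 4 genes differed in wild-type mice, 2 higher and 2 lower, against 3.32% and 2.95% of all genes. Besides Cox4i1 and Uqcr11 these were Uqcrc2 (-0.26, adjusted p = 0.0252) and the complex I assembly factor Ndufaf2 (-0.34, 0.0265), whose calls single mice ended (up to 0.137 and 0.103). The mean level of Ndufaf2 was low, 7.03 at 6 and 6.67 at 18 months in wild-type mice, where array medians ran from 6.91 to 7.05. The number called was 2 without WT-400 or WT-1020, 2 with only the groups compared (1.24% of all genes) and 9 with array weights (12%), and with median centring 2 were higher and 4 lower. In HdhQ150 mice 7 differed, 5 higher and 2 lower, against 2.28% and 2.37% of all genes: Cox4i1, Cox6b1, Uqcrb, Ndufs3 and the accessory complex I subunit Ndufc2 (0.29, 0.0443) were higher, and Uqcrc1 (-0.31, 0.0219) and Atp5d lower. Calls other than those of Cox4i1, Cox6b1 and Uqcrb were each ended by leaving out some single mouse (adjusted p up to 0.147, for Ndufc2, which was at 0.30 with 0.0514 without HdhQ150-1023). The number called was 20 without WT-454 and HdhQ150-1023 (8.26% of all genes) and 25 with array weights (12.5%). It was 3 without HdhQ150-415, HdhQ150-1001 or HdhQ150-1016, 4 without HdhQ150-426 and 11 without HdhQ150-383. With arrays centred on their median 3 were higher and 2 lower. Counts without single mice and with median centring carry no share of all genes here and cannot be read as particular to the respiratory genes.

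Markers of cell types moved with age as well. Between 6 and 12 months striatal projection neuron markers rose, 9 of 12 called in wild-type and 8 in HdhQ150 mice, and cortical excitatory neuron markers fell, 7 and 8 of 9 called. Of all genes 13.1% were called higher and 12.6% lower in wild-type mice, and 11.9% and 11.2% in HdhQ150 mice. The marker level of cortical excitatory neurons was taken as the mean deviation of the markers from each gene's mean over all mice. It was 0.376, -0.475 and 0.520 in wild-type mice of 6, 12 and 18 months, and 0.312, -0.821 and 0.445 in HdhQ150 mice of those ages. At 12 months its values ran from -0.929 to 0.089 in wild-type and from -1.347 to -0.179 in HdhQ150 mice, against -0.090 to 0.761 at 6 months. Markers of neurons in general (6 of 9 called lower in each genotype) and astrocytes (4 and 5 of 9 lower) moved down too. Between 12 and 18 months the striatal markers fell, 10 and 11 of 12 called, and the cortical markers rose, 5 and 7 of 9. Of all genes 3.81% were called higher and 2.07% lower in wild-type mice, and 5.79% in either direction in HdhQ150 mice. These lists moved with the age comparisons in both genotypes, and their part in the respiratory gene differences was not tested.

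Genes of neighbouring pathways were taken from lists, which were chosen with earlier results of these data known. Their counts between 6 and 12 months stand against 13.1% of all genes higher and 12.6% lower in wild-type mice, and 11.9% and 11.2% in HdhQ150 mice. In wild-type mice 13 of 48 further assembly and electron carrier genes were lower and 0 higher, among them Surf1 (-0.29, adjusted p = 0.000404) and Cox15 (-0.23, 0.00418), both needed to build complex IV, and Coq3 (-0.35, 0.000779) of ubiquinone synthesis. In HdhQ150 mice 7 were lower and 1 higher, with Surf1 at -0.19 (0.00863) and the F1 assembly factor Atpaf2 at -0.29 (0.00166). Citric acid cycle and pyruvate dehydrogenase genes were lower for 9 and higher for 1 of 22 in wild-type mice, and 1 each in HdhQ150 mice. Glycolysis genes were lower for 5 and higher for 1 of 13 in wild-type and 3 and 1 in HdhQ150 mice. Of 20 regulators of mitochondrial biogenesis 1 passed in each genotype, the coactivator Ppargc1a (PGC-1alpha), which drives the transcription of respiratory genes. It fell by 0.41 in wild-type (adjusted p = 0.000373) and 0.42 in HdhQ150 mice (0.000146), in all alternatives and without any mouse. Its part in the respiratory gene differences was not tested. Proteasome genes, a nuclear-encoded complex of another kind, were lower for 11 and higher for 1 of 31 in wild-type mice and lower for 1 and higher for 3 in HdhQ150 mice.

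Between 6 and 18 months 3.32% of all genes were higher and 2.95% lower in wild-type mice, where the counts were 0 higher and 5 lower of the 48 assembly and carrier genes, 1 and 1 of 22 citric acid cycle genes, 1 and 0 of 13 glycolysis genes, 0 of 20 regulators, and 1 and 3 of 31 proteasome genes. In HdhQ150 mice, with 2.28% and 2.37% of all genes, they were 0 and 2, 0 and 0, 1 and 0, 0 and 0, and 2 and 0.

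Between genotypes only 2 genes of these lists passed, Pdp1 at 12 months and Pdk4 at 18 months. Of all genes 0.938% and 0.135% did at those ages, and whether the 2 calls are particular to these lists was not tested. Both genes switch pyruvate dehydrogenase, the enzyme that feeds the citric acid cycle. Pdp1, the phosphatase that activates it, was lower in HdhQ150 mice at 12 months by 0.59 on the log2 scale (-0.59, limma adjusted p = 3.65e-05), and was at -0.30 at 6 months and -0.18 at 18 months (adjusted p = 0.130 and 0.857). Pdk4, a kinase that inactivates it, was higher at 18 months (0.37, adjusted p = 0.0265). The Pdk4 call ended without the sex term (0.0704), with only the 2 groups compared (0.235), with all probe sets (0.0536) and without any of HdhQ150-383, HdhQ150-412, HdhQ150-426, WT-400, WT-401 or WT-431 (up to 0.161).

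Within groups the 90 genes varied partly together. The deviation of each gene from its group mean correlated with the mean deviation of the other 89 with a median r of 0.314 over the 29 mice, from -0.511 to 0.767, and r was positive for 80 of 90 (72 without WT-454, median 0.297). These values come from the same arrays and share their quality and normalization, and are a description. The highest r were those of Ndufa4 (0.767), Sdhb (0.729), Uqcrq (0.728), Atp5o (0.718) and Ndufc1 (0.703), which belong to complexes IV, II, III, V (the ATP synthase) and I. The restricted complex IV isoforms differed: their median r was -0.292 and 2 of 9 were positive, with Cox8c, the testis form, at -0.511 and Cox4i2 at -0.402. Without WT-454 their median was -0.034 with 4 of 9 positive. Outside the 90, the genes whose deviations followed the mean of the 90 most closely over the 29 mice were Zfp536 (r = 0.779), Rps29 (0.777), Mrps33 (0.771), Gyg (0.744) and Mrpl36 (0.742). Ribosomal protein genes make up 3 of these, Mrps33 and Mrpl36 of the mitochondrial and Rps29 of the cytosolic ribosome.

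**Figure D5:**
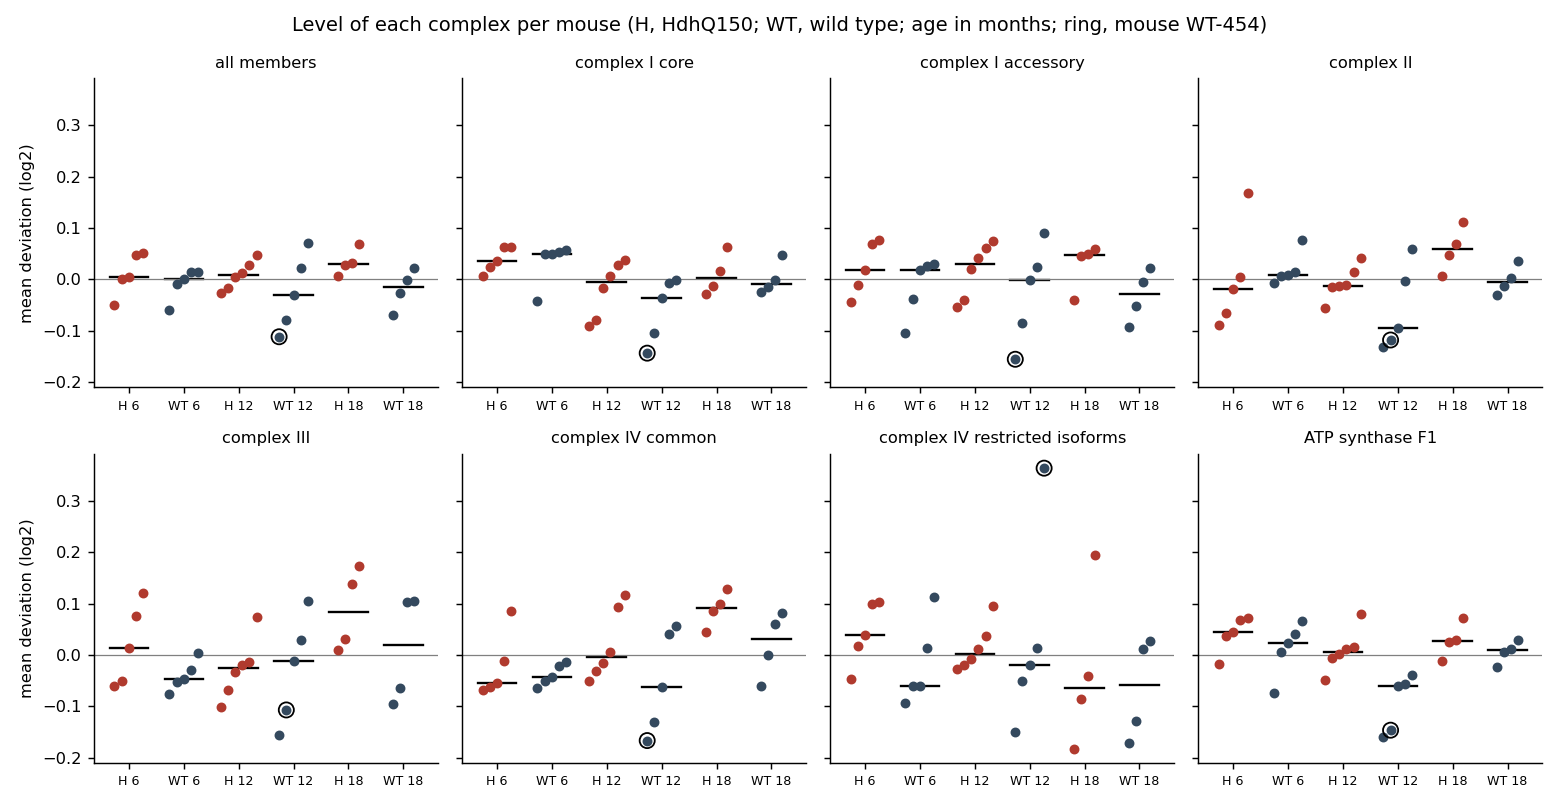
Mean deviation (log2, y axis) of all 90 genes and of 7 of the 9 complex groups from each gene's mean over all mice, 1 point per mouse with the group median as a bar and wild-type mouse WT-454 ringed. WT-454 is lowest for all members. For the restricted complex IV isoforms, several of them of low level, it is the highest of the 29 mice, at 0.364.

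For the 90 genes together the values of HdhQ150 and wild-type mice overlapped at each age. The mean deviation was 0.011 ± 0.041 (SD, n = 5), 0.008 ± 0.027 (n = 6) and 0.034 ± 0.026 (n = 4) in HdhQ150 mice of 6, 12 and 18 months. In wild-type mice it was -0.008 ± 0.030 (SD, n = 5), -0.026 ± 0.074 (n = 5) and -0.019 ± 0.039 (n = 4). The spread was widest in the 12-month wild-type group, where it ran from -0.112 in WT-454 to 0.070.

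For the 17 genes with several probe sets, a second probe set had the opposite sign in 1, 2 and 6 genes for the genotype comparisons at 6, 12 and 18 months, in 0 and 4 genes between 6 and 12 months in wild-type and HdhQ150 mice, in 2 and 4 between 12 and 18 months, and in 2 and 1 between 6 and 18 months. The 6 probe sets that name a respiratory gene together with another symbol, such as Ndufs5 with its pseudogene Ndufs5-ps, were left out, and none of them passed by limma in any comparison.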

How the data were processed

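RNA from the caudate nucleus was isolated by TRIzol-chloroform and biotin-labelled, according to the labels' protocols. The authors deposited log2 values for 35556 probe sets; the submitters' processing notes name RMA and Affymetrix Expression Console without a version. RMA normalizes between arrays, which removes any shift common to all genes. The platform annotation gives 21789 probe sets 1 symbol, 1621 several and 12146 none here. The fit used limma 3.58.1 (R 4.3.3) with a variance trend, 6 group means, labelled sex and all 29 arrays, which left 22 residual degrees of freedom. It covered 12 comparisons, with calls at an adjusted p under 0.05, and was tested on simulated data. The number of arrays limits the precision. Genes named are those called in any comparison, the core and catalytic subunits and restricted isoforms, those with the smallest p per direction, those that moved most without WT-454 (chosen after their values were seen), up to 4 per pathway list and the 5 most like the members. The members and lists were chosen with earlier results of these data known. Alternatives were no sex term, HdhQ150-1023 as male, females only, both doubtful mice left out, only the groups compared, array weights, robust variances, the upper 50% by level, all probe sets, the mean of probe sets, median centring, quantile normalization, RefSeq symbols and each mouse left out.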

Additional observations from a re-analysis of the deposited data

Results flagged for a closer look

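In each group of 4 to 6 mice, the highest and the lowest value of each complex's mean deviation (10 such means) and of 18 genes were set against the gap to the next mouse. Of 168 groups of values 13 had a mouse far from the others, and chance marks about 1 in 20. HdhQ150-1023, of the 6-month group, was lowest in Ndufa7 at 8.8559 (next 9.3761), in Uqcr11 at 9.0743 (9.5289) and in Uqcrc1 at 9.9962 (10.1993). Of the 6-month wild-type mice, WT-1020 was highest in Ndufa7 at 9.0096 (8.8820) and lowest in Uqcrc1 at 9.9641 (10.1131), WT-1011 was lowest in the mean deviation of the complex I core at -0.0420 (0.0487) and of the stalk and membrane part at -0.1108 (-0.0091), and WT-1018 was highest in complex II at 0.0764 (0.0145). At 12 months WT-454 was lowest in Ndufs3 at 9.5937 (9.7858) and WT-461 in Atp5d at 11.5488 (11.8715). At 18 months HdhQ150-426 was lowest in the complex I accessory subunits at -0.0404 (0.0446) and in Atp5k at 7.8583 (8.2171), and HdhQ150-383 in the assembly factors at -0.1265 (0.0281).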

How the results depend on the processing

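Every age call listed in the report kept its direction under all alternatives run, and calls held in all of them for 3 of 15 genes (wild type, 6 to 12 months), 8 of 20 (HdhQ150, 6 to 12), 2 of 4 (wild type, 6 to 18), 3 of 7 (HdhQ150, 6 to 18) and 0 of 2 (wild type, 12 to 18). With 1 mouse left out the median genotype difference ran from -0.0034 to 0.032 at 6 months, so that its sign turned, from 0.019 to 0.054 at 12 months and from 0.030 to 0.065 at 18 months. Numbers of respiratory genes called moved as follows, with the percentage of all genes called under the same setting in brackets, and the cause was not tested. Numbers with single mice left out carry no such percentage and cannot be read as particular to the respiratory genes. For genotype at 6 months (0 in the report) it was 6 without WT-454 and HdhQ150-1023 (4.35%) and 9 with array weights (6.67%), and at 12 months (0) it was 1 without the sex term (0.978%), 1 with robust variances (0.938%), 1 over the upper 50% of genes (2.55%) and 2 with weights (3.29%). Wild type, 6 to 12 months (15), gave 9 in females (12.2%) and 8 with only the groups compared (17.6%); 12 to 18 months (2) gave 1 in females (6.64%), 1 with only the groups compared (7.15%), 4 over the upper 50% (13%), 0 over all probe sets (4.57%), 1 with the mean of probe sets (5.76%) and 1 with median centring (5.35%); 6 to 18 months (4) gave 2 with only the groups compared (1.24%) and 9 with weights (12%). HdhQ150, 6 to 12 months (20), gave 12 in females (15.6%) and 34 with weights (35.6%); 12 to 18 months (0) gave 1 without the sex term (7.12%), 1 in females (5.69%), 1 with median centring (5.52%), 1 with quantile normalization (5.67%), 3 without both mice (8.96%) and 3 with weights (10.9%); 6 to 18 months (7) gave 20 without both mice (8.26%) and 25 with weights (12.5%). With 1 mouse left out, the numbers ran from 0 to 3, 0 to 2 and 0 to 0 for genotype at 6, 12 and 18 months, 0 to 0 for the interactions, 10 (without WT-1002) to 21 (WT-1011), 0 (WT-400, WT-401 or WT-414) to 2 and 2 to 6 in wild type, and 13 to 26 (HdhQ150-1023), 0 to 3 (WT-454) and 3 to 11 (HdhQ150-383) in HdhQ150 mice, in the order 6 to 12, 12 to 18 and 6 to 18 months.

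Genotype differences near 0 changed sign, none of them called. At 6 months Sdhb was at 0.0012 without the sex term or with HdhQ150-1023 as male, 0.0024 with only the groups compared, 0.0027 with weights and 0.0076 with quantile normalization. Sdhc was at -0.027 without both mice and -0.0033 with weights, Ndufv2 at -0.014 with weights and -0.037 with quantile normalization, and Sdhd at 0.017 with the latter. At 12 months Ndufs1 was at -0.091 in females, -0.103 without both mice and -0.044 with weights, Ndufs7 at 0.022 and 0.019 under the first and the second of these, and Sdha at -0.017, -0.037 and -0.0065 under all of them and -0.014 with quantile normalization. Uqcrc2 was at -0.0031 without both mice and Uqcrfs1 at 0.012 with weights. At 18 months weights gave Ndufs1 0.050, Sdhb -0.016, Cyc1 -0.0050 and Uqcrc1 -0.028, median centring gave Ndufs1 0.0029 and quantile normalization Sdhb -0.018.

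With 1 mouse left out, 6-month differences ran from -0.0046 to 0.041 (Atp5b), -0.024 to 0.063 (Cox4i1), -0.067 to 0.046 (Ndufv2), -0.040 to 0.032 (Sdhb), -0.029 to 0.089 (Sdhc) and -0.045 to 0.025 (Sdhd). At 12 months they ran from -0.0043 to 0.073 (Atp5e), -0.0999 to 0.110 (Ndufs1), -0.063 to 0.020 (Ndufs7), -0.033 to 0.041 (Sdha) and -0.0018 to 0.081 (Uqcrc2). At 18 months they ran from -0.130 to 0.023 (Atp5mpl), -0.171 to 0.039 (Cox7b2), -0.018 to 0.077 (Cyc1), -0.051 to 0.081 (Ndufs1), -0.041 to 0.0049 (Ndufs3), -0.114 to 0.034 (Ndufs7), -0.168 to 0.074 (Ndufs8), -0.040 to 0.022 (Sdhb), -0.017 to 0.117 (Sdhc), -0.041 to 0.019 (Sdhd) and -0.077 to 0.085 (Uqcrc1). No paired analysis was possible because the groups share no mouse numbers. Choosing the members by RefSeq's current symbols gave the same 90 genes.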
